A study of Mus musculus with 32 samples.

Results

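The fibroblast growth factor (FGF) genes described here are 10 mouse genes chosen by symbol and grouped by role: the ligands Fgf4 and Fgf5, the extracellular FGF binding protein gene Fgfbp1, the receptor genes Fgfr1 and Fgfr2, and 5 genes that are widely read as targets of the kinase ERK, namely Etv4, Etv5, Spry2, Spry4 and Dusp6. The genes were chosen with earlier results of these data known. Every probe annotated to exactly 1 of these symbols was taken. That gave 25 of 45037 probe sets on the arrays of the RNA interference (RNAi) experiment, which cover 18193 named genes, and 11 of 16657 testable probes on the 2-colour arrays of the differentiation experiment, which cover 12034 named genes. All 10 genes were present on both platforms, with 1 to 4 probe sets each on the first and 1 probe each on the other, except Etv5 with 2 probes there.

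E14TG2a cells, a feeder-independent mouse embryonic stem (ES) cell line, were used throughout. The RNAi arrays hold 4 samples with a construct against Pou5f1 (the gene of Oct4), 5 samples with a construct against Nanog and 5 samples with the parental pSUPER-puro vector. All 14 samples were transfected with Lipofectamine 2000 and selected with 1 µg/ml puromycin for 3 days starting 24 h after transfection, so the vector samples share the transfection and the drug. An RNAi construct against an unrelated gene is not among the samples used here. The differentiation arrays hold untreated E14 cells in one channel and cells treated with 0.1 µM retinoic acid, 1% dimethyl sulfoxide (DMSO) or 3 mM hexamethylene bisacetamide (HMBA) in the other, after 2, 4 or 6 days, with 2 arrays of opposite dye orientation for each inducer and day and thus 18 arrays. Nothing in the labels says that the samples of a group came from separate cultures, so p-values measure the spread between these arrays, which may be technical.

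FGF ligands bind receptor tyrosine kinases together with heparan sulfate chains on the cell surface, and the receptors pass the signal through Ras, Raf and MEK to ERK. In mouse ES cells Fgf4 is the main FGF that the cells make themselves, and its ERK signal is known to prime them for leaving the naive state. In the early embryo, FGF signals are known for their part in forming the primitive endoderm and in keeping trophoblast stem cells dividing. ERK activity turns on the ETS factors Etv4 and Etv5 and a set of feedback inhibitors, of which Sprouty proteins dampen receptor signals and Dusp6 removes phosphate from ERK.

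The promoters of the genes that changed after Pou5f1 RNAi are shown here, where the table used has them, for reference beside the values below. RefSeq's promoter table (GRCm38.p6) held 8 windows for 7 of the 10 genes, each running from 250 bases before to 50 bases after an annotated transcription start. The 6 printed are those of Fgf4 (chr7:144861136-144861435, plus strand), Etv5 (chr16:22439521-22439820, minus strand, 1 of its 2 windows), Spry2 (chr14:105896770-105897069, minus strand) and Dusp6 (chr10:99262981-99263280, plus strand), which were lower after Pou5f1 RNAi. Those of Fgfbp1 (chr5:43981750-43982049, minus strand) and Fgfr2 (chr7:130266759-130267058, minus strand), which were higher, follow. Capitals mark matches, on either strand, to the TATA box letters TATAAA and their variant TATATA, the GC box GGGCGG, the CCAAT box and the ETS core CCGGAA.
Fgf4: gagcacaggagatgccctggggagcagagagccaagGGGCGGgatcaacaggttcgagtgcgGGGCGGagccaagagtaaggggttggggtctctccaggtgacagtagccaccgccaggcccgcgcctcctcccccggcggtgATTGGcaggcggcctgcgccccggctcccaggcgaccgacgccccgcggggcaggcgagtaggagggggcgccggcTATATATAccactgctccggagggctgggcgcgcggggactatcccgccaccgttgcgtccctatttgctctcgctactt
Etv5: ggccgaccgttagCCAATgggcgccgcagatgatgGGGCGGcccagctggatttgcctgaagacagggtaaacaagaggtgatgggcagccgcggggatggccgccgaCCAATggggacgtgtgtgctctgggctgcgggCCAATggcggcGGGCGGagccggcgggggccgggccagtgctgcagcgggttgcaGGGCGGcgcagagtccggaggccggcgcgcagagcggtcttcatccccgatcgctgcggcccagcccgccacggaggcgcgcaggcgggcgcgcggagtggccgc
Spry2: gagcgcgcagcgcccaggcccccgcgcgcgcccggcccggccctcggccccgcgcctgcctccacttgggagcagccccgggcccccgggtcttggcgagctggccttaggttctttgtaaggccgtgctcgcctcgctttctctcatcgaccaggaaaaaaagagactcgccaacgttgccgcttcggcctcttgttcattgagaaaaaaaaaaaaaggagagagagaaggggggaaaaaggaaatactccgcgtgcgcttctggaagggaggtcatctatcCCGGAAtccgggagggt
Dusp6: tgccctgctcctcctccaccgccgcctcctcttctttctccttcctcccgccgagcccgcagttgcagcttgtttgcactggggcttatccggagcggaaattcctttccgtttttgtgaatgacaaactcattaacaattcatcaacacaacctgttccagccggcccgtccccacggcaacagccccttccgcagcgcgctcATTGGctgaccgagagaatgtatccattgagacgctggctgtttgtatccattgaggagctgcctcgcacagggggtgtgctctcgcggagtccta
Fgfbp1: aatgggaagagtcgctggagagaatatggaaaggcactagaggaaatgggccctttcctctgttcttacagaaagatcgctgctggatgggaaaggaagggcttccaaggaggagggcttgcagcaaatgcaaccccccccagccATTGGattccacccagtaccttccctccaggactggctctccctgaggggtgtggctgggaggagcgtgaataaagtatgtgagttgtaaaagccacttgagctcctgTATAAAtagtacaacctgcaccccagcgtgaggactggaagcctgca
Fgfr2: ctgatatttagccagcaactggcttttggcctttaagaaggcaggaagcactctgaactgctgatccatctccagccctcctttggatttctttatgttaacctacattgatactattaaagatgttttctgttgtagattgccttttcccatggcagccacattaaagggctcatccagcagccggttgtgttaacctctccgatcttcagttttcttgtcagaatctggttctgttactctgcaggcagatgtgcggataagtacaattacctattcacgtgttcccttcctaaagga

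In the Fgf4 window the TATA variant stood at positions -30 and -28, which overlap, the GC box at -214 and -188, and the CCAAT box at -106, counting from the start site. The Etv5 window held the GC box at -215, -99 and -55 and the CCAAT box at -237, -142 and -110. The Dusp6 window held a single marked motif, the CCAAT box at -46, and the Fgfbp1 window held that box at -105 and the TATA box at position 4 of the transcript. The Spry2 window held the ETS core 34 bases into the transcript, and the Fgfr2 window held none of the marked motifs. Such matches are common: of 32851 windows of this length, 37.4% held the CCAAT box, 35.7% the GC box, 14.9% the ETS core, 13.6% the TATA box and 5.67% its variant. The POU octamer ATGCAAAT was found in 0 of the 8 windows, against 1.74% of all windows, and TGANTCA in 0 of 8, against 7.81% of all windows. These are descriptions of the letters in the windows and say nothing about binding.

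The knockdowns were visible in the targeted genes. Pou5f1 had log2 levels of 8.73 to 9.21 in Pou5f1 RNAi cells, 11.18 to 11.51 in Nanog RNAi cells and 11.31 to 11.51 in vector cells. Nanog had median log2 levels of 9.70 in Pou5f1 RNAi cells, 9.26 in Nanog RNAi cells and 11.06 in vector cells, so both knockdowns carried less Nanog RNA than the vector. Arrays of 1 RNAi group correlated at r = 0.99 to 0.997 over all probe sets. Throughout, a probe is called when its adjusted p in limma's moderated test is under 0.05 (Benjamini-Hochberg over all probes of the platform), and a change is a difference of log2 values ± its standard error. The 2 knockdown comparisons share their vector arrays, and levels of different probe sets are not set against each other.

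After Pou5f1 RNAi, the ligand Fgf4 and all 5 ERK target genes fell against the vector, while Fgfbp1 and both receptor genes rose. Of 25 probe sets 15 were lower, where 15.6% of all probe sets were lower, and 5 were higher, where 16% of all were higher. After Nanog RNAi the pattern was mixed: 6 of the 25 probe sets were lower than in the vector against a background of 6.78%, all of them of Fgf4 or Etv5, and 8 were higher against a background of 8.8%. Set directly against Nanog RNAi, Pou5f1 RNAi gave 16 lower probe sets (14.5% of all were lower) and 4 higher ones (15% of all were higher). Because the genes were chosen with earlier results of these data known, counts beside these shares are a description and not a test. The median change of the 25 probe sets was -0.996 for Pou5f1 RNAi against vector, 0.02 for Nanog RNAi against vector and -0.90 between the knockdowns, beside medians of -0.04, -0.02 and -0.01 over all probe sets. In these bulk samples, fewer cells of a type and less RNA per cell cannot be told apart.

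**Figure D1:**
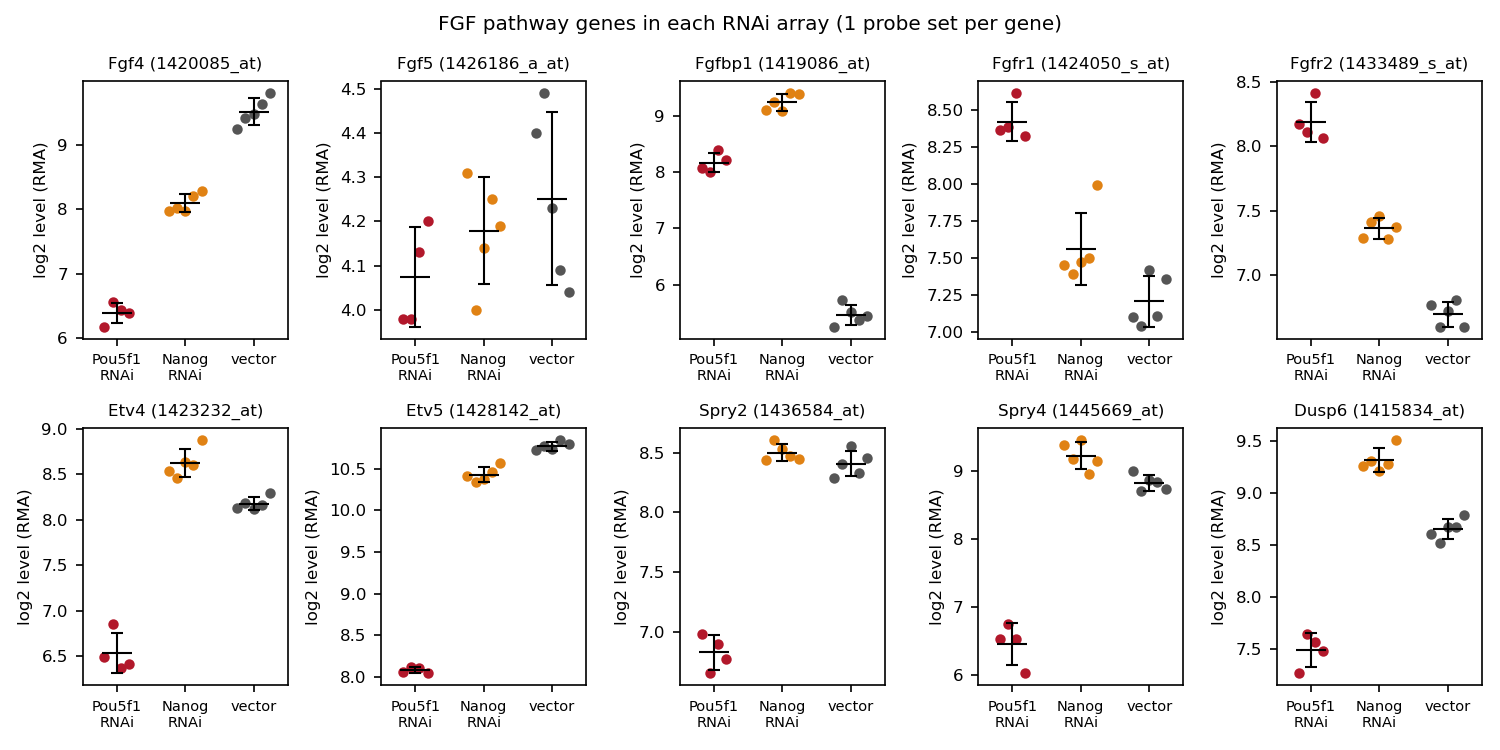
Log2 level (RMA) of each of the 10 genes in every RNAi array, 1 probe set per gene (the one with the highest mean), with Pou5f1 RNAi (red, n = 4), Nanog RNAi (orange, n = 5) and vector (grey, n = 5). Bars give mean ± SD, and each panel has its own vertical axis. Fgf4 is ordered with Pou5f1 RNAi lowest and vector highest without overlap, and Fgfbp1 is highest with Nanog RNAi.

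Fgf4 showed the largest fall among the 10 genes in both knockdowns against vector. Its probe set 1420085_at read 6.18, 6.57, 6.44 and 6.39 in Pou5f1 RNAi cells. The same probe set read 7.98, 8.02, 7.98, 8.21 and 8.29 in Nanog RNAi cells. In vector cells it read 9.25, 9.42, 9.48, 9.63 and 9.80. The 3 groups did not overlap, with Nanog RNAi between the others. The change was -3.12 ± 0.11 for Pou5f1 RNAi against vector, which is 8.68-fold lower (adjusted p = 4.83e-15). For Nanog RNAi against vector it was -1.42 ± 0.10, or 2.67-fold lower (adjusted p = 2.86e-09). Between the knockdowns Fgf4 was lower with Pou5f1 RNAi, at -1.70 ± 0.11 (adjusted p = 7.58e-11).

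The other Fgf4 probe sets differed in how much they could show. Probe set 1420086_x_at, whose suffix marks probes that may also bind similar sequences, changed by -3.15 with Pou5f1 RNAi and -1.43 with Nanog RNAi. Probe set 1450282_at changed by -1.84 and -1.12, both called. Probe set 1449729_at lay between 3.01 and 3.43 on every array, below the 25th percentile of all probe sets on all 14 arrays, and was not called in any comparison.

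Fgf5, the ligand known from the primed epiblast, gave no call on either of its probe sets. Its probe set 1426186_a_at read 3.98 to 4.20 in Pou5f1 RNAi cells, 4.00 to 4.31 in Nanog RNAi cells and 4.04 to 4.49 in vector cells, and the groups overlapped. Its change was -0.18 ± 0.10 with Pou5f1 RNAi (adjusted p = 0.200) and -0.07 ± 0.09 with Nanog RNAi (adjusted p = 0.713). Probe set 1438883_at lay below the 25th percentile on 12 of 14 arrays. It changed by -0.24 ± 0.10 with Pou5f1 RNAi (adjusted p = 0.0901) and by -0.02 ± 0.10 with Nanog RNAi (adjusted p = 0.928). With probe sets averaged per gene, Fgf5 was called lower with Pou5f1 RNAi (-0.21, adjusted p = 0.0304).

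Fgfbp1 encodes a secreted carrier that releases FGFs from heparan sulfate in the matrix, and it rose more than any other of the 10 genes. Its only probe set read 8.07, 8.0, 8.39 and 8.21 in Pou5f1 RNAi cells. In Nanog RNAi cells the readings were 9.11, 9.24, 9.08, 9.40 and 9.38, and in vector cells 5.25, 5.72, 5.51, 5.38 and 5.44. Nanog RNAi cells were highest and vector cells lowest, with no overlap of any pair of groups. Against vector, Fgfbp1 rose by 2.71 ± 0.10 with Pou5f1 RNAi (6.53-fold, adjusted p = 2.31e-14). With Nanog RNAi it rose by 3.78 ± 0.10 (13.7-fold, adjusted p = 1.35e-15). Directly compared, it was lower with Pou5f1 RNAi than with Nanog RNAi, at -1.07 ± 0.10 (adjusted p = 4.33e-08), the opposite order from the receptors.

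Both receptor genes were higher after Pou5f1 RNAi. Fgfr2, the receptor gene known from trophoblast and primitive endoderm, read 8.17, 8.11, 8.41 and 8.06 on probe set 1433489_s_at in Pou5f1 RNAi cells. Nanog RNAi cells read 7.29, 7.41, 7.46, 7.28 and 7.37, and vector cells 6.77, 6.60, 6.72, 6.81 and 6.60. No groups overlapped, and Nanog RNAi lay between the others. The change was 1.49 ± 0.08 with Pou5f1 RNAi (2.81-fold, adjusted p = 9.02e-12) and 0.66 ± 0.08 with Nanog RNAi (1.58-fold, adjusted p = 3.45e-06). A further probe set, 1420847_a_at, gave 1.55 and 0.54, both called, while 1443211_at changed by -0.12 and 0.02 without a call.

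Fgfr1, the receptor gene that ES cells are known to express most, read 8.36, 8.38, 8.61 and 8.32 on probe set 1424050_s_at in Pou5f1 RNAi cells. Nanog RNAi cells read 7.45, 7.39, 7.47, 7.5 and 7.99, and vector cells 7.10, 7.04, 7.42, 7.11 and 7.36. Pou5f1 RNAi cells lay above both other groups, which overlapped each other. The change was 1.21 ± 0.11 with Pou5f1 RNAi (2.31-fold, adjusted p = 3.02e-08). With Nanog RNAi the change was 0.35 ± 0.11 (adjusted p = 0.0293). That call was lost without vector array 1, 2 or 4 or Nanog RNAi array 5 (adjusted p up to 0.0794, change between 0.25 and 0.41), and probe set 1425911_a_at gave 1.09 with Pou5f1 RNAi but 0.07 with Nanog RNAi, which was not called. Probe set 1436551_at was not called in any comparison.

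**Figure D2:**
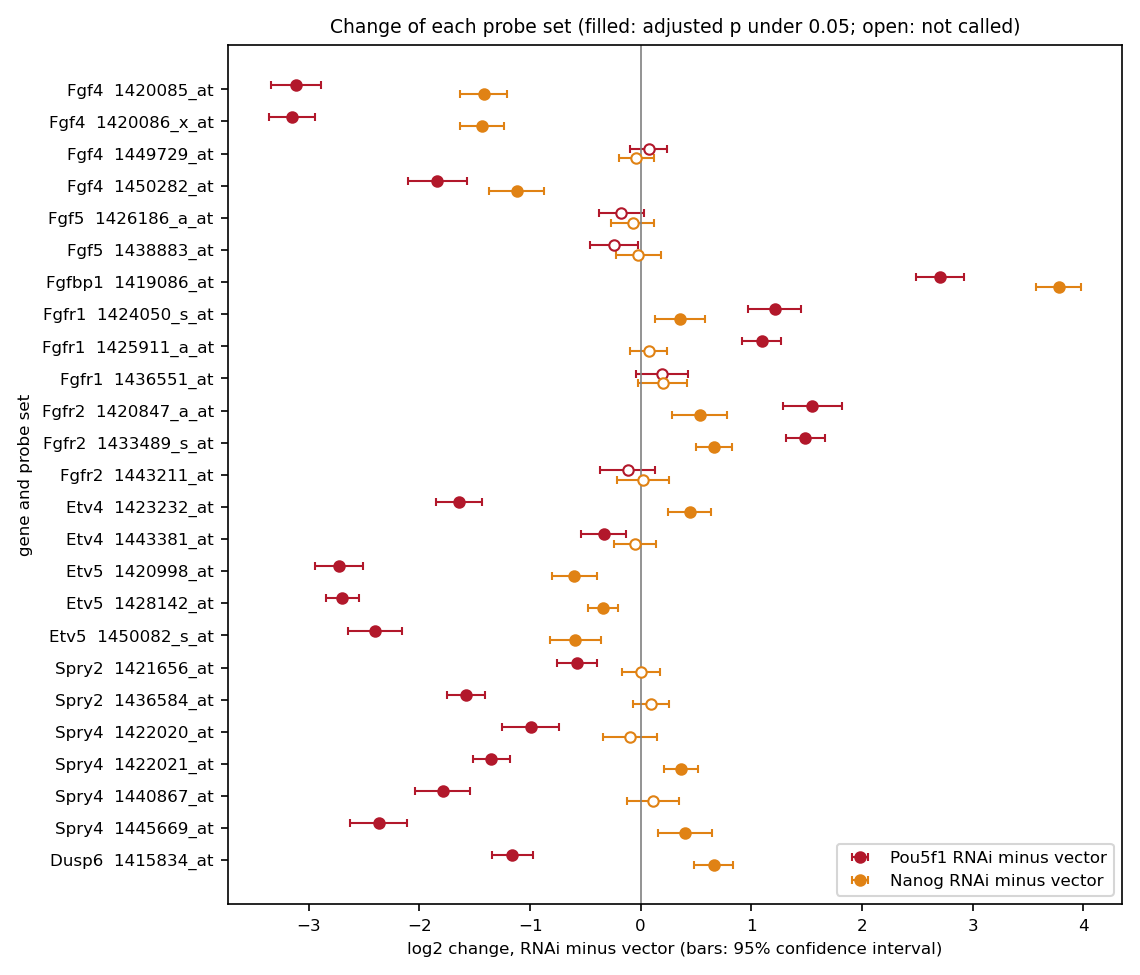
Log2 change of each of the 25 probe sets for Pou5f1 RNAi minus vector (red) and Nanog RNAi minus vector (orange), with 95% confidence intervals. Filled points are called. The Etv4, Spry4 and Dusp6 probe sets with a call for both knockdowns lie left of 0 for Pou5f1 RNAi and right of it for Nanog RNAi.

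The ERK targets separated the knockdowns. Etv5, an ETS transcription factor, read 8.06, 8.12, 8.10 and 8.04 on probe set 1428142_at in Pou5f1 RNAi cells. Nanog RNAi cells read 10.41, 10.34, 10.38, 10.46 and 10.57, and vector cells 10.72, 10.77, 10.74, 10.85 and 10.80. Pou5f1 RNAi cells were far below the rest, and Nanog RNAi cells lay just below vector cells without overlap. The change was -2.70 ± 0.07 with Pou5f1 RNAi (6.48-fold lower, adjusted p = 6.13e-17) and -0.34 ± 0.07 with Nanog RNAi (1.27-fold lower, adjusted p = 0.000816). The 2 other Etv5 probe sets changed by -2.73 and -2.41 with Pou5f1 RNAi and by -0.60 and -0.59 with Nanog RNAi, all called.

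Its relative Etv4 moved in opposite directions. On probe set 1423232_at the readings were 6.49, 6.86, 6.37 and 6.42 in Pou5f1 RNAi cells. Nanog RNAi cells read 8.54, 8.46, 8.63, 8.60 and 8.88, and vector cells 8.13, 8.19, 8.12, 8.16 and 8.29. Pou5f1 RNAi was lowest and Nanog RNAi highest, with no overlap. Against vector, Etv4 fell by 1.64 ± 0.10 with Pou5f1 RNAi (3.13-fold lower, adjusted p = 3.01e-11) and rose by 0.44 ± 0.09 with Nanog RNAi (1.36-fold, adjusted p = 0.00192). Between the knockdowns the difference was -2.09 ± 0.10 (adjusted p = 8.98e-13). The rise with Nanog RNAi was not called when Etv4's probe sets were averaged (adjusted p = 0.0583), with the dim probe set 1443381_at at -0.05 there. With Pou5f1 RNAi that dim probe set was called lower against vector (-0.34, adjusted p = 0.00919) and against Nanog RNAi (-0.28, adjusted p = 0.0302). Its groups overlapped.

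Spry4, a feedback inhibitor of receptor tyrosine kinase signals, had 4 probe sets. The brightest, 1445669_at, read 6.53, 6.75, 6.52 and 6.02 in Pou5f1 RNAi cells. Nanog RNAi cells read 9.38, 9.18, 9.46, 8.96 and 9.15, and vector cells 9.0, 8.70, 8.87, 8.83 and 8.73. Pou5f1 RNAi cells were well below both other groups, which overlapped. The fall with Pou5f1 RNAi was 5.17-fold (change -2.37 ± 0.12, adjusted p = 3.18e-12). With Nanog RNAi the change was 0.40 ± 0.12 (adjusted p = 0.0226), and that call was lost without vector array 2 or Nanog RNAi array 1 or 3 (adjusted p up to 0.0701, change between 0.34 and 0.47). All 4 Spry4 probe sets fell with Pou5f1 RNAi, with changes of -2.37 to -0.996, whereas with Nanog RNAi 2 rose and 2 were not called.

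Spry2, of the same family, fell with Pou5f1 RNAi and was not called with Nanog RNAi. Probe set 1436584_at read 6.98, 6.65, 6.90 and 6.77 in Pou5f1 RNAi cells, 8.44, 8.61, 8.53, 8.47 and 8.45 in Nanog RNAi cells, and 8.29, 8.41, 8.56, 8.33 and 8.46 in vector cells. Nanog RNAi and vector cells overlapped. The change was -1.58 ± 0.08 with Pou5f1 RNAi (2.99-fold lower, adjusted p = 3.05e-12) and 0.09 ± 0.08 with Nanog RNAi (adjusted p = 0.529), and the difference between the knockdowns was -1.67 ± 0.08 (adjusted p = 1.51e-12). Probe set 1421656_at changed by -0.58 with Pou5f1 RNAi, called, and by 0.00 with Nanog RNAi.

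Dusp6, the ERK phosphatase, was like Etv4 in direction. It read 7.27, 7.65, 7.57 and 7.48 in Pou5f1 RNAi cells, 9.26, 9.31, 9.21, 9.28 and 9.51 in Nanog RNAi cells, and 8.61, 8.52, 8.67, 8.67 and 8.79 in vector cells. Nanog RNAi cells were highest and Pou5f1 RNAi cells lowest, and no groups overlapped. Dusp6 fell by 1.16 ± 0.09 with Pou5f1 RNAi (2.24-fold lower, adjusted p = 1.03e-09) and rose by 0.66 ± 0.08 with Nanog RNAi (1.58-fold, adjusted p = 7.70e-06). The difference between the knockdowns was -1.82 ± 0.09 (adjusted p = 1.15e-12).

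Markers of other cell types moved with these changes. The summed linear level of 10 trophectoderm markers was 20772 to 21996 in Pou5f1 RNAi cells, 2306 to 3038 in Nanog RNAi cells and 798 to 927 in vector cells, and 10 of 10 rose with Pou5f1 RNAi and 9 of 10 with Nanog RNAi, although Elf5 stayed below the array median on every array. The summed level of 10 ES cell markers was 9349 to 11256 with Pou5f1 RNAi, 22435 to 24486 with Nanog RNAi and 27042 to 30392 with vector. This list holds the RNAi targets Pou5f1 and Nanog, so part of the fall in its sum is the knockdown itself. With Pou5f1 RNAi all genes of the list fell except Tbx3, which rose (0.77). With Nanog RNAi Pou5f1, Utf1, Dppa5a and Tbx3 were not called and the others fell. Of 8 primitive endoderm markers, 1 rose and 5 fell with Pou5f1 RNAi and 4 rose with Nanog RNAi. Their sums were 2249 to 2495 with Pou5f1 RNAi, 1595 to 2053 with Nanog RNAi and 1378 to 1553 with vector. The 1 that rose with Pou5f1 RNAi was Col4a1 (2.01), so the higher sum there does not stand for most of the list. For 5 epiblast markers the sums were 1470 to 1665 with Pou5f1 RNAi, 2122 to 2274 with Nanog RNAi and 2324 to 2510 with vector, and 0 rose and 4 fell with Pou5f1 RNAi while 1 rose and 3 fell with Nanog RNAi. Sums of 7 fibroblast markers were 3128 to 3815, 2133 to 2391 and 1413 to 1686, with Col1a1 and Col3a1 below the array median everywhere. With Pou5f1 RNAi 3 of the 7 rose, led by Tagln (5.43) and Acta2 (3.34), and 2 fell, Thy1 (-0.81) and Vim (-0.43), while 2 rose and 1 fell with Nanog RNAi. The sums of 5 measured neural markers were 305 to 326, 241 to 283 and 253 to 310, with Sox1 and Neurog2 below the array median, and 2 rose and 1 fell with Pou5f1 RNAi while 0 rose and 2 fell with Nanog RNAi. The part of such cells in the FGF gene changes was not tested.

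Other genes of the pathway, each by its brightest probe set, moved less uniformly. Over all probe sets, 16% were higher and 15.6% lower with Pou5f1 RNAi against vector. With Nanog RNAi 8.8% were higher and 6.78% lower. These shares stand beside the counts of the pathway and marker lists, which take only the brightest probe set of each gene. Of 20 further FGF ligand genes 3 fell and 0 rose with Pou5f1 RNAi against vector, namely Fgf17 (-1.87), Fgf15 (-1.64) and Fgf21 (-0.40). With Nanog RNAi, 2 fell and 1 rose, and these were Fgf17 (-1.16), Fgf15 (-0.82) and Fgf1 (1.83). Fgf1 thus differed between the knockdowns, by -1.83 ± 0.10 (adjusted p = 5.88e-12). The median change of the 20 was -0.04 with Pou5f1 RNAi and -0.05 with Nanog RNAi, close to that of all probe sets. The share of these ligand genes that fell with Pou5f1 RNAi was also close to that of all probe sets.

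Of 22 measured receptors, co-receptors and heparan sulfate genes, 8 rose and 2 fell with Pou5f1 RNAi, and 6 rose and 1 fell with Nanog RNAi. The glypican gene Gpc1 (1.92), the heparan sulfate sulfotransferase gene Hs6st1 (1.55) and the syndecan gene Sdc4 (1.21) rose with Pou5f1 RNAi, and Klb, a co-receptor of endocrine FGFs, fell (-1.39). With Nanog RNAi Sdc4 rose (1.47) and the glypican gene Gpc3 fell (-1.15). Medians were 0.03 and 0.02.

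Among 15 measured genes of the Ras to ERK cascade, 8 rose and 2 fell with Pou5f1 RNAi, and 2 rose and 2 fell with Nanog RNAi. Eras, a constitutively active Ras known from ES cells, fell by 2.48 with Pou5f1 RNAi and by 1.30 with Nanog RNAi. The Ras exchange factor gene Sos2 rose by 1.73 and by 1.40, and Ptpn11, the phosphatase Shp2 that acts between receptors and Ras, by 1.17 and by 0.58, in the same order. Median changes were 0.22 with Pou5f1 RNAi and 0.06 with Nanog RNAi.

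Of 20 further measured ERK targets and feedback genes, 8 rose and 8 fell with Pou5f1 RNAi, and 7 rose and 7 fell with Nanog RNAi, with medians of 0.00 and -0.08. The immediate early gene Egr1 fell by 2.74 with Pou5f1 RNAi and by 1.40 with Nanog RNAi, and the cyclin gene Ccnd1 fell by 2.21 with Pou5f1 RNAi. Dusp9, an ERK phosphatase gene of the same family as Dusp6, rose by 2.85 with Pou5f1 RNAi, and Phlda1 rose by 2.05 with Pou5f1 RNAi and by 1.57 with Nanog RNAi. As many genes of this wider list rose as fell with each knockdown.

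As a description over the 14 RNAi arrays, with no test since the arrays fall into 3 groups, the genes most alike in level were ranked by Pearson's r among 18193 genes. For Fgf4 they were Gsta4, Atad5 and Slc7a3 (r = 0.995, 0.995 and 0.994). Etv5 was most like Phc1, Ifitm3 and Nop10 (r = 0.998, 0.997 and 0.996), and Spry4 most like Zfp141, Enpp3 and Ell2 (r = 0.996, 0.993 and 0.992). Etv4 was closest to Slc7a7 (r = 0.995), Spry2 to Tcf15 (r = 0.993), Dusp6 to Zfp296 and Pou3f1 (r = 0.995 and 0.994), Fgfr2 to Dkk1 (r = 0.991) and Fgfbp1 to Plk3 (r = 0.986). Fgf5, which stayed at low levels, reached r = 0.874 with Cxcr5.

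In the differentiation experiment each value is a log ratio of treated over untreated cells, taken as log2 because no source used here states the base. The 18 arrays share untreated E14 RNA as common reference, so its own spread is left out, as is the spread between days in a mean over days. Array 1 of each pair has the treated sample in Cy3 and array 2 in Cy5. Deviations of arrays with the same orientation went together in all 72 pairs of arrays from different groups (r = 0.505 to 0.92), so the orientation pairs the arrays. The 2 arrays of a group deviate from their mean as mirror images, so each pair of groups gives the same r for both orientations. The fit without a dye term is the one reported unless stated, and each gene's account gives the calls that a fit with dye orientation as a term adds.

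With all 3 inducers Fgf4, Etv5 and Spry4 fell on average over days 2, 4 and 6, and Fgfbp1, Fgfr1 and Fgfr2 rose. Fgf5 rose with DMSO and was not called with retinoic acid or HMBA. With retinoic acid 4 of 11 probes were higher (14.6% of all probes) and 5 lower (10.5% of all). With DMSO 4 were higher (9.4% of all) and 3 lower (7.62% of all), and the dye term took the 7 calls to 11, where it called 22.7% of all probes higher and 18.4% lower. With HMBA 3 were higher (13.4% of all) and 5 lower (11.4% of all). As on the RNAi arrays, these counts describe genes chosen with earlier results known. Medians of the 11 probes were -0.32 with retinoic acid, -0.30 with DMSO and -0.53 with HMBA, beside -0.02, 0.02 and 0.00 over all probes.

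**Figure D3:**
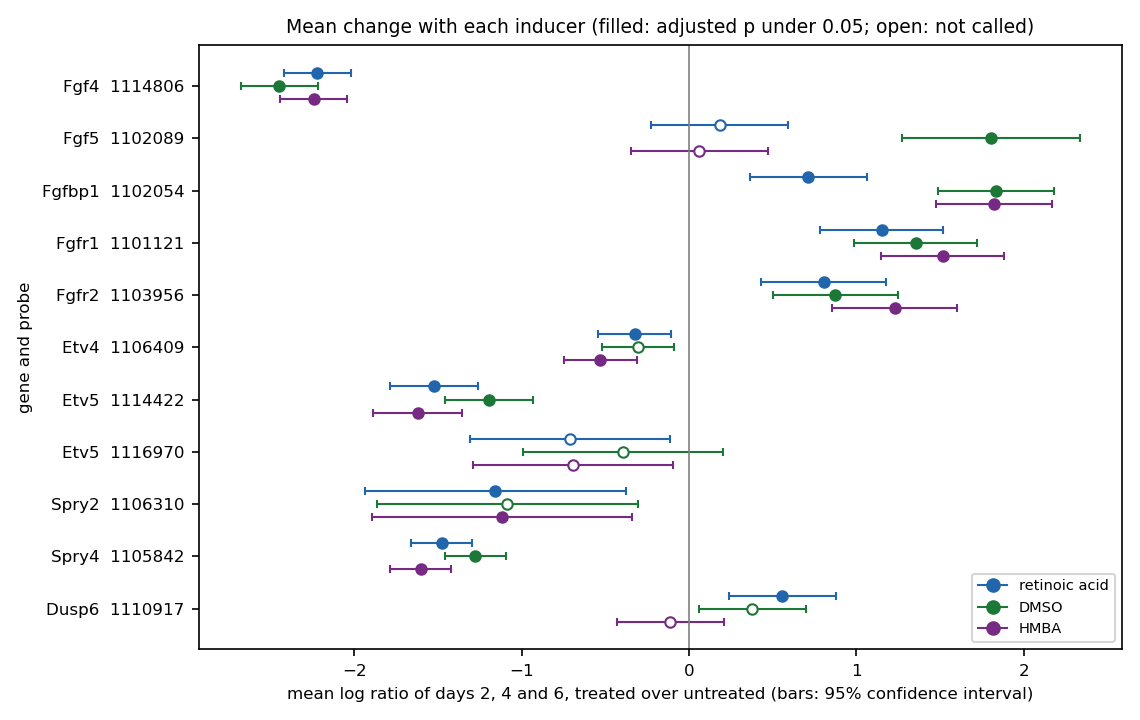
Mean log ratio of days 2, 4 and 6, treated over untreated cells, for each of the 11 probes with retinoic acid (blue), DMSO (green) and HMBA (purple), with 95% confidence intervals. Filled points are called in the fit without a dye term. Fgf4, Etv5 probe 1114422 and Spry4 lie left of 0 with every inducer, and Fgfbp1, Fgfr1 and Fgfr2 right of it.

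Fgf4 was below untreated cells on every array with a value. With retinoic acid its ratios were -2.48 and -2.35 on day 2, -2.14 and -2.28 on day 4, and -2.03 and -2.04 on day 6. With DMSO they were -1.35 and -1.35 on day 2, -3.0 and -2.80 on day 4, and -3.09 on day 6, where only 1 array had a value. With HMBA they were -1.77 and -2.10, -2.62 and -2.67, and -1.87 and -2.40 on the same days. Means were -2.22 ± 0.09 with retinoic acid (4.66-fold lower, adjusted p = 1.94e-08), -2.45 ± 0.10 with DMSO (5.45-fold lower, adjusted p = 4.84e-08) and -2.24 ± 0.09 with HMBA (4.73-fold lower, adjusted p = 1.91e-08). All 9 combinations of inducer and day were called, that of DMSO day 2 not without its array 2 (adjusted p = 0.0511). The inducers did not differ by a call, with 0.23 ± 0.14 for retinoic acid minus DMSO, 0.02 ± 0.13 for retinoic acid minus HMBA and -0.21 ± 0.14 for DMSO minus HMBA.

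Fgf5 stood apart with DMSO. With retinoic acid its ratios were 1.38 and 0.50 on day 2, 0.12 and -0.26 on day 4, and 0.24 and -0.89 on day 6. With DMSO they were 2.35 and 1.84 on day 2 and, with 1 array each, 1.92 on day 4 and 1.40 on day 6. With HMBA they were 1.45 and 0.69, -0.10 and -0.74, and -0.25 and -0.67 on days 2, 4 and 6. All 4 DMSO values lay above 0, while values of days 4 and 6 with the other inducers lay on both sides of it with retinoic acid and below it with HMBA. Fgf5 read higher with the sample in Cy3 in all 7 pairs, with a mean difference of 0.67 for Cy3 minus Cy5. The DMSO values of days 4 and 6 come only from arrays with the sample in Cy3. Means were 0.18 ± 0.19 with retinoic acid (adjusted p = 0.554), 1.81 ± 0.24 with DMSO (3.50-fold, adjusted p = 0.000421) and 0.06 ± 0.19 with HMBA (adjusted p = 0.871). In the fit with the dye term the DMSO mean was 1.58 (adjusted p = 9.89e-09).

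Tested directly, Fgf5 differed by -1.62 ± 0.30 for retinoic acid minus DMSO (adjusted p = 0.00940) and by 1.74 ± 0.30 for DMSO minus HMBA (adjusted p = 0.0197). The second call was lost without array 1 of DMSO day 2 or array 2 of any HMBA day (adjusted p up to 0.0622, difference between 1.62 and 1.87). Retinoic acid minus HMBA gave 0.12 ± 0.26 without a call. In the fit with the dye term, retinoic acid minus DMSO was -1.40 (adjusted p = 1.55e-06). By day, Fgf5 was called with DMSO on days 2 and 4 in the fit without a dye term. The day 2 call was lost without either of its arrays (adjusted p up to 0.235), and the day 4 call when the array without an Fgf5 value was left out of the fit (adjusted p = 0.0545). Fgf5 was higher on day 2 with all 3 inducers in the fit with the dye term, at 0.94 with retinoic acid (adjusted p = 0.000123), 2.10 with DMSO (adjusted p = 6.26e-08) and 1.07 with HMBA (adjusted p = 4.39e-05). It was then also higher on DMSO day 6 (1.07, adjusted p = 0.000814) and lower on HMBA days 4 and 6 (-0.42 and -0.46, adjusted p = 0.0305 and 0.0184). Day 6 minus day 2 was called with each inducer in that fit, at -1.27 with retinoic acid (adjusted p = 0.000665), -1.03 with DMSO (adjusted p = 0.0147) and -1.53 with HMBA (adjusted p = 9.74e-05).

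Fgfbp1 was higher on 5 of 6 retinoic acid arrays and on all 6 arrays each with DMSO and HMBA. With retinoic acid its ratios were 2.36 and 1.76 on day 2, 0.34 and 0.15 on day 4, and 0.22 and -0.54 on day 6. With DMSO they were 2.05 and 1.26, 2.27 and 1.79, and 2.13 and 1.52 on the same days, and with HMBA 2.74 and 2.37, 1.82 and 1.10, and 1.73 and 1.18. The retinoic acid values on days 4 and 6 lay below every DMSO and HMBA value. Means were 0.71 ± 0.16 with retinoic acid (1.64-fold, adjusted p = 0.00556), 1.84 ± 0.16 with DMSO (3.57-fold, adjusted p = 7.10e-06) and 1.82 ± 0.16 with HMBA (3.54-fold, adjusted p = 4.29e-06).

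The means of Fgfbp1 differed by -1.12 ± 0.23 for retinoic acid minus DMSO (adjusted p = 0.00994) and by -1.11 ± 0.23 for retinoic acid minus HMBA (adjusted p = 0.0157). The retinoic acid minus HMBA call did not hold without array 2 of retinoic acid day 4 or 6 or without array 1 of any HMBA day (adjusted p up to 0.0602, difference between -1.24 and -0.98). DMSO minus HMBA was 0.01 ± 0.23. From day 2 to day 6 the retinoic acid ratio changed by -2.22 ± 0.39 (adjusted p = 0.0183), a call that was lost without either day 2 array or without array 2 of day 6 (adjusted p up to 0.228). The HMBA ratio changed as well from day 2 to day 6 with the dye term, by -1.10 (adjusted p = 0.000435).

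**Figure D4:**
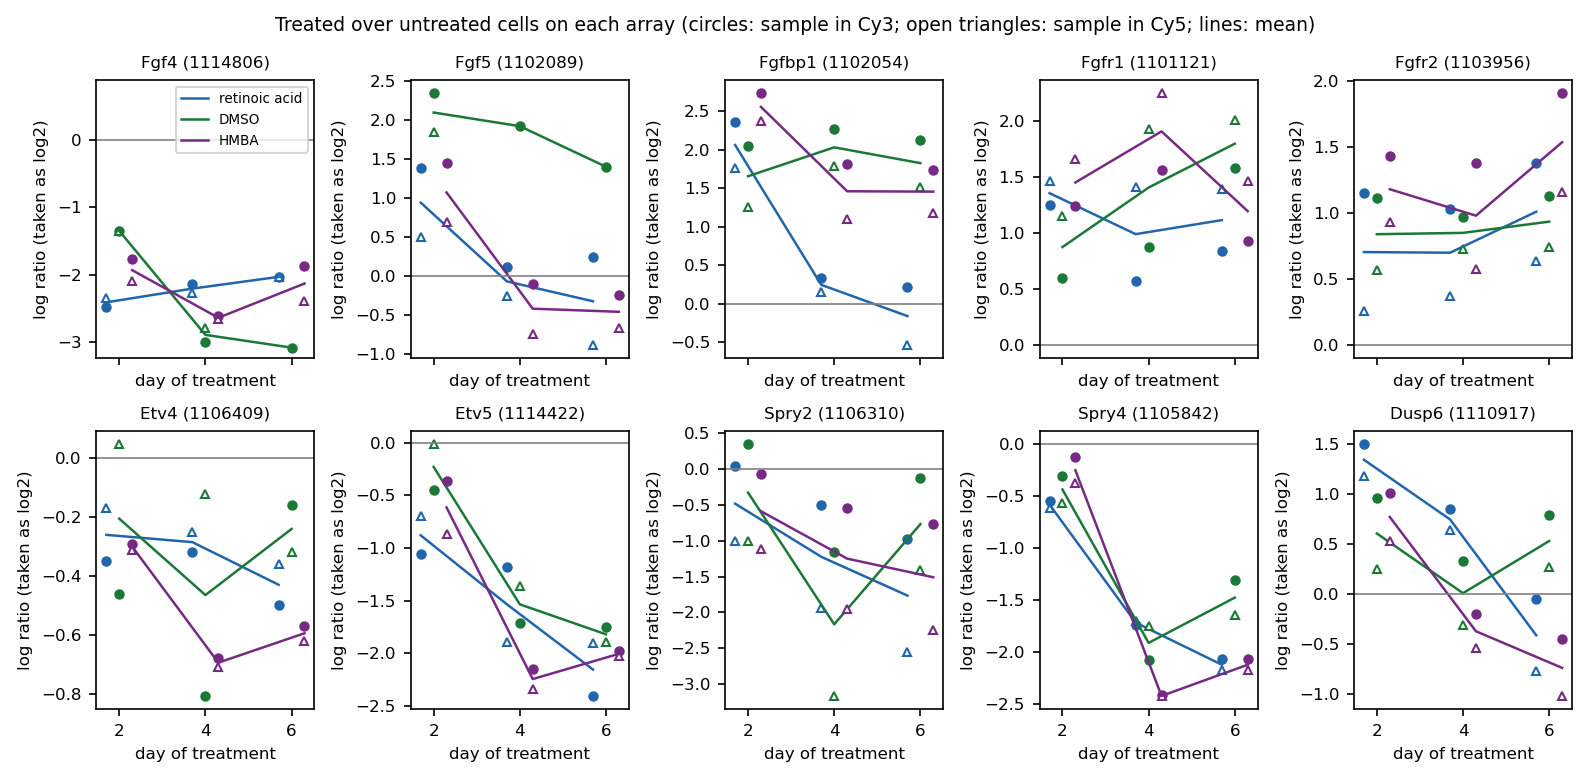
Log ratio (taken as log2) of treated over untreated cells on each array against day of treatment, 1 probe per gene, for retinoic acid (blue), DMSO (green) and HMBA (purple). Circles have the sample in Cy3 and open triangles in Cy5, lines join the means, and the inducers are set slightly apart around days 2, 4 and 6. Spry4 lies between -0.62 and -0.13 on day 2 and between -2.43 and -1.31 afterwards.

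Both receptor genes were above untreated cells on every array. Fgfr1 ratios were 0.57 to 1.46 with retinoic acid (median 1.32), 0.60 to 2.01 with DMSO (median 1.37) and 0.93 to 2.25 with HMBA (median 1.51). Its array with the sample in Cy5 was the higher one in all 9 pairs. Means were 1.15 ± 0.17 with retinoic acid (2.22-fold, adjusted p = 0.000272), 1.36 ± 0.17 with DMSO (2.56-fold, adjusted p = 0.000119) and 1.52 ± 0.17 with HMBA (2.86-fold, adjusted p = 2.97e-05).

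Fgfr2 ratios were 0.26 to 1.38 with retinoic acid (median 0.83), 0.57 to 1.13 with DMSO (median 0.86) and 0.58 to 1.91 with HMBA (median 1.27). Here the array with the sample in Cy3 was higher in all 9 pairs. Means were 0.81 ± 0.17 (1.75-fold, adjusted p = 0.00394), 0.88 ± 0.17 (1.83-fold, adjusted p = 0.00334) and 1.23 ± 0.17 (2.35-fold, adjusted p = 0.000179) in the same order of inducers. Without a dye term no pair of inducers differed by a call in either receptor gene. With it, retinoic acid minus HMBA was called for Fgfr1 (-0.36, adjusted p = 0.0308) and Fgfr2 (-0.43, adjusted p = 0.00856), and DMSO minus HMBA for Fgfr2 (-0.36, adjusted p = 0.0376). By day, the fit without a dye term called Fgfr1 in 7 of 9 combinations of inducer and day and Fgfr2 in 4, and the dye term called both in all 9. Fgfr1 then also rose from day 2 to day 6 with DMSO (0.92, adjusted p = 0.00439).

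Among the ERK targets, Etv5 and Spry4 fell with every inducer. Etv5 probe 1114422 read -1.06 and -0.70 on retinoic acid day 2, -1.18 and -1.89 on day 4, and -2.41 and -1.90 on day 6. With DMSO it read -0.45 and -0.01, -1.71 and -1.36, and -1.75 and -1.89 on the same days, and with HMBA -0.36 and -0.87, -2.15 and -2.34, and -1.98 and -2.03. All 18 values were below 0, and day 2 values lay closest to it within each inducer. Means were -1.52 ± 0.12 with retinoic acid (2.87-fold lower, adjusted p = 1.98e-06), -1.19 ± 0.12 with DMSO (2.29-fold lower, adjusted p = 2.49e-05) and -1.62 ± 0.12 with HMBA (3.07-fold lower, adjusted p = 1.19e-06).

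The other Etv5 probe, 1116970, had lower ratios with the sample in Cy3 in all 9 pairs, with a mean difference of -1.0 for Cy3 minus Cy5. Its means of -0.71, -0.39 and -0.69 with retinoic acid, DMSO and HMBA were not called without the dye term (adjusted p = 0.0814, 0.413 and 0.0916). With the dye term all 3 were called (adjusted p = 1.74e-05, 0.00556 and 2.26e-05), as were days 4 and 6 with each inducer (adjusted p up to 0.0488). For probe 1114422 the dye term added HMBA day 2 (-0.61, adjusted p = 0.0223) and, for day 6 minus day 2, retinoic acid (-1.27, adjusted p = 0.00353).

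Spry4 was lower on every array, and more so after day 2. With retinoic acid its ratios were -0.55 and -0.62 on day 2, -1.74 and -1.70 on day 4, and -2.07 and -2.18 on day 6. With DMSO they were -0.31 and -0.57, -2.08 and -1.75, and -1.31 and -1.65, and with HMBA -0.13 and -0.38, -2.42 and -2.43, and -2.07 and -2.18. Within each inducer every day 2 value lay above every later value. On day 2 Spry4 was called lower with retinoic acid (-0.59 ± 0.15, adjusted p = 0.0306), a call that was lost without either array of that day or array 2 of HMBA day 4 (adjusted p up to 0.169). In the fit with the dye term the day 2 values of retinoic acid (adjusted p = 0.00211) and DMSO (-0.44, adjusted p = 0.0313) were called, and that of HMBA was not (-0.26, adjusted p = 0.170). Means were -1.48 ± 0.08 with retinoic acid (2.78-fold lower, adjusted p = 1.09e-07), -1.28 ± 0.08 with DMSO (2.42-fold lower, adjusted p = 6.37e-07) and -1.60 ± 0.08 with HMBA (3.03-fold lower, adjusted p = 5.82e-08).

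Between day 2 and day 6 the Spry4 ratio changed with each inducer. In the fit without a dye term it was the one gene of the 10 with all 3 calls, while with the dye term Fgf5 and Etv5 (probe 1114422) had all 3 as well. The difference of day 6 minus day 2 was -1.54 ± 0.21 with retinoic acid (adjusted p = 0.00270), -1.04 ± 0.21 with DMSO (adjusted p = 0.0332) and -1.86 ± 0.21 with HMBA (adjusted p = 0.000518). The retinoic acid and HMBA calls held without any 1 of the 18 arrays. The DMSO call was lost without any array of DMSO day 2 or 6, of retinoic acid day 4 or 6, or of HMBA (adjusted p up to 0.383, difference between -1.21 and -0.87).

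Etv4 changed little. Its ratios were -0.50 to -0.17 with retinoic acid, -0.81 to 0.05 with DMSO and -0.71 to -0.29 with HMBA, and 17 of 18 lay below 0. The mean was -0.32 ± 0.10 with retinoic acid (adjusted p = 0.0314), and -0.53 ± 0.10 with HMBA (adjusted p = 0.00169). With DMSO it was -0.30 ± 0.10 (adjusted p = 0.0565), which the dye term called (adjusted p = 0.00638), along with retinoic acid day 6 (-0.43, adjusted p = 0.0229) and DMSO day 4 (-0.46, adjusted p = 0.0223). The retinoic acid call was lost without any of that inducer's arrays other than array 2 of day 2 (adjusted p up to 0.106, change between -0.35 and -0.29).

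Spry2 depended strongly on the dye orientation, being higher with the sample in Cy3 in all 9 pairs, with a mean difference of 1.40 for Cy3 minus Cy5. Its ratios were -2.55 to 0.04 with retinoic acid, -3.17 to 0.35 with DMSO and -2.25 to -0.07 with HMBA. Means were -1.16 ± 0.36 with retinoic acid (adjusted p = 0.0320), -1.09 ± 0.36 with DMSO (adjusted p = 0.0574) and -1.12 ± 0.36 with HMBA (adjusted p = 0.0379). With the dye term all 3 were called (adjusted p = 2.31e-09, 8.45e-09 and 3.50e-09). No single day was called for Spry2 without the dye term, and all but DMSO day 2 (-0.33, adjusted p = 0.193) were called lower with it. Its day 6 minus day 2 was then -1.28 with retinoic acid (adjusted p = 0.000508) and -0.92 with HMBA (adjusted p = 0.00675). Without it the retinoic acid call was lost without array 2 of any retinoic acid day (adjusted p up to 0.154, change between -1.42 and -0.90), and the HMBA call without array 2 of any HMBA day or array 1 of HMBA day 2 (adjusted p up to 0.178, change between -1.36 and -0.87).

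Dusp6 went against the other ERK targets early on. With retinoic acid its ratios were 1.5 and 1.18 on day 2, 0.85 and 0.64 on day 4, and -0.05 and -0.77 on day 6. With DMSO they were 0.96 and 0.25, 0.33 and -0.31, and 0.79 and 0.27, and with HMBA 1.01 and 0.53, -0.20 and -0.54, and -0.45 and -1.02. All 6 values of day 2 lay above 0, and the retinoic acid and HMBA values of day 6 below it. The retinoic acid day 2 value was called (1.34 ± 0.25, 2.54-fold, adjusted p = 0.00658), though not without its array 1 (adjusted p = 0.121). The dye term added higher calls on retinoic acid day 4 (0.74, adjusted p = 0.000153), DMSO days 2 and 6 (0.60 and 0.53, adjusted p = 0.00302 and 0.00277) and HMBA day 2 (0.77, adjusted p = 0.000169). It added lower calls on retinoic acid day 6 (-0.41, adjusted p = 0.0126) and HMBA days 4 and 6 (-0.37 and -0.74, adjusted p = 0.0272 and 0.000131).

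The mean of Dusp6 was 0.56 ± 0.15 with retinoic acid (1.47-fold, adjusted p = 0.0139), a call that needed each of that inducer's arrays with the sample in Cy3 (adjusted p up to 0.0808 without array 1 of day 2, 4 or 6, change between 0.44 and 0.68). It was 0.38 ± 0.15 with DMSO (adjusted p = 0.105), called with the dye term (adjusted p = 0.000298), and -0.11 ± 0.15 with HMBA (adjusted p = 0.675). From day 2 to day 6 the ratio changed by -1.75 ± 0.36 with retinoic acid (adjusted p = 0.0394). That call was lost without any array of retinoic acid or HMBA or of DMSO day 6 (adjusted p up to 0.359, difference between -2.12 and -1.39), and was kept in the fit with the dye term (adjusted p = 4.16e-06). With HMBA the difference was -1.50 ± 0.36 (adjusted p = 0.0707), called with the dye term (adjusted p = 1.66e-05). With the dye term, Dusp6 was also higher with retinoic acid than with HMBA (0.67, adjusted p = 0.000116) and with DMSO than with HMBA (0.49, adjusted p = 0.00362).

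Counted by day, 6 of the 11 probes were called on retinoic acid day 2 (6.23% of all probes), 3 on day 4 (9.26%) and 5 on day 6 (14.5%). With the dye term the probes of Fgf5, Fgfr2 and Spry2 were called on day 2 as well, where that fit called 22.6% of all probes. The counts on days 4 and 6 were then 8 and 9 (29.4% and 40.4% of all probes). With DMSO 3 were called on day 2 (1.97% of all), 6 on day 4 (6.72%) and 5 on day 6 (10.2%). With the dye term the DMSO counts were 7, 10 and 10 (10.3%, 25.6% and 31.1% of all). With HMBA 4 were called on day 2 (4.98% of all), 7 on day 4 (12.8%) and 7 on day 6 (12.3%). With the dye term the HMBA counts were 8, 11 and 11 (21.3%, 33.3% and 32.9% of all). The dye term thus raised the background as well, to between 10.3% (DMSO day 2) and 40.4% (retinoic acid day 6) of all probes. A day rests on at most 2 arrays, and 23 of the 46 calls of a gene on a day, 1 probe per gene, were lost when some array was left out.

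Between day 2 and day 6, 3 probes changed with retinoic acid (1.09% of all probes), namely those of Fgfbp1, Spry4 and Dusp6. With DMSO 3 changed (0.955% of all), those of Fgf4 (-1.74 ± 0.27, adjusted p = 0.0117, with 1 array on day 6), Etv5 (-1.59 ± 0.30, adjusted p = 0.0256) and Spry4. With HMBA 2 changed (1.48% of all), those of Etv5 (-1.39 ± 0.30, adjusted p = 0.0403) and Spry4. The Fgf4 call was lost without either array of DMSO day 2 (adjusted p up to 0.0834), and the Etv5 calls without any array of the days compared and, with HMBA, also without any array of HMBA day 4 or of DMSO day 2 or 6 (adjusted p up to 0.259 with DMSO and 0.394 with HMBA). With the dye term 6, 5 and 6 probes changed with retinoic acid, DMSO and HMBA, where that fit called 10.7%, 9.9% and 10% of all probes.

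Between inducers, 2 of the 11 probes differed for retinoic acid minus DMSO (6.19% of all probes), those of Fgf5 and Fgfbp1. For retinoic acid minus HMBA 1 differed (3.28% of all), that of Fgfbp1, and for DMSO minus HMBA 1 (1.45% of all), that of Fgf5. The dye term gave 4 probes for retinoic acid minus HMBA (16.5% of all) and 3 for DMSO minus HMBA (9.66% of all). For retinoic acid minus DMSO it again called only the probes of Fgf5 and Fgfbp1, where that fit called 22.7% of all probes.

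Marker lists moved with the inducers too, and their part in the FGF gene changes was not tested. Of 10 ES cell markers 8 fell with retinoic acid, 9 with DMSO and 10 with HMBA, and 0 rose. Of 7 fibroblast markers 6 rose with retinoic acid, 4 with DMSO and 5 with HMBA, and 0 fell. Of 8 measured trophectoderm markers 4 rose and 0 fell with retinoic acid, 1 rose and 1 fell with DMSO, and 3 rose and 1 fell with HMBA. Of 6 measured primitive endoderm markers 4 rose with retinoic acid, 1 with DMSO and 2 with HMBA, and 1 fell with each. Among 5 epiblast markers 1 rose and 4 fell with retinoic acid, 1 rose and 1 fell with DMSO, and 0 rose and 2 fell with HMBA. Of 4 measured neural markers 1 rose and 1 fell with each inducer.

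Over all probes, 14.6% were higher and 10.5% lower with retinoic acid. The shares were 9.4% and 7.62% with DMSO, and 13.4% and 11.4% with HMBA. They stand beside the counts of the marker lists and of the pathway lists that follow. In the wider pathway, of 17 measured receptors, co-receptors and heparan sulfate genes 11 rose and 1 fell with retinoic acid, 6 rose and 1 fell with DMSO, and 10 rose and 1 fell with HMBA, with medians of 0.67, 0.31 and 0.48. The glypican gene Gpc4 rose with each inducer, by 1.14 with retinoic acid, 1.12 with DMSO and 1.52 with HMBA, and Gpc3 rose by 2.22 with retinoic acid. Among 14 further ligand genes 3 rose and 2 fell with retinoic acid, 2 rose and 1 fell with DMSO, and 0 rose and 2 fell with HMBA. Fgf15, a ligand gene, rose by 0.50 with retinoic acid but fell by 0.49 with DMSO and by 1.21 with HMBA, and Fgf8 rose by 0.60 with retinoic acid and by 1.18 with DMSO.

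Of 10 measured cascade genes 4 rose and 1 fell with retinoic acid, 3 rose and 1 fell with DMSO, and 5 rose and 1 fell with HMBA. Ptpn11 rose by 0.77 with retinoic acid, 0.68 with DMSO and 0.75 with HMBA, and the gene of the docking protein Frs3 fell by 0.62, 0.34 and 0.55 in the same order. Of 14 further ERK targets and feedback genes 6 rose and 1 fell with retinoic acid, 5 rose and 3 fell with DMSO, and 5 rose and 3 fell with HMBA. Errfi1, a feedback inhibitor of the EGF receptor, rose by 2.02 with retinoic acid and by 1.70 with HMBA, and Ccnd1 fell by 1.05 with DMSO and by 2.03 with HMBA.

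Set side by side, with the caveat that the platforms scale differently and that comparisons within a platform share their controls, Fgf4 changed by -3.12 with Pou5f1 RNAi, -1.42 with Nanog RNAi, -2.22 with retinoic acid, -2.45 with DMSO and -2.24 with HMBA. Etv5 changed by -2.70, -0.34, -1.52, -1.19 and -1.62, and Fgfbp1 by 2.71, 3.78, 0.71, 1.84 and 1.82 in that order. Spry4 changed by -2.37, 0.40, -1.48, -1.28 and -1.60, and Dusp6 by -1.16, 0.66, 0.56, 0.38 and -0.11. Every Dusp6 value of these is called except those with DMSO and HMBA, and the dye term also called that with DMSO. The retinoic acid call of Dusp6 was lost when some single arrays were left out.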

How the data were processed

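RNA levels were measured in 14 RNAi samples on Affymetrix Mouse Genome 430 2.0 arrays and in 18 treated samples on custom 2-colour arrays. The deposited RNAi values are log2 levels that the authors made with RMA, per the submitters' processing notes, which name no version. The deposited 2-colour values are log ratios of treated over untreated cells, turned to that direction on dye-swapped arrays per the labels and analysed as log2, since no source used here states their base. Each array's median ratio lay within 0.0001 of 0. Labels do not say how replicate cultures were made, and the number of arrays limits precision.

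Groups, days and doses came from the labels. Control probe sets (64) were left out. Probes were named through the platforms' gene tables, in which 34945 of 45037 probe sets and 16345 of 21106 ratio probes had 1 symbol (932 and 125 several, 9160 and 4636 none). No genome build is given for the arrays, so only the RefSeq promoter windows carry coordinates. A ratio probe was tested when it had a value for every inducer and day (16657 probes).

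Comparisons were fitted with limma 3.58.1 (lmFit, eBayes) in R 4.3.3, all arrays of a platform in 1 fit without a block, tested on simulated data first. A ratio mean averages the 3 day coefficients. Every probe of the 10 genes is described. Where 1 probe stands for a gene, it is the brightest probe set or the most complete ratio probe. From the wider pathway at most 4 called genes per list and comparison, those with the largest change, may be named, and 3 most alike genes per gene were ranked. The 10 genes, the gene lists and the tests were chosen with earlier results of these data known. Same-numbered RNAi arrays deviated together at r over 0.1 in 5 of 13 pairs (range -0.246 to 0.437), so the number was not taken as a pairing. Ratio arrays of the same dye orientation deviated together (r = 0.505 to 0.92). The main fit leaves that pairing out, and only the alternative fit with a dye term takes it in. Alternatives were the block or dye term, fewer arrays or groups, centring or scaling, array weights, a filter on dim or incomplete probes, averaging per gene, an intensity trend and an exact permutation test (SciPy 1.17.1). Figures used matplotlib 3.10.9 in Python 3.11.15.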

Additional observations from a re-analysis of the deposited data

Results flagged for a closer look

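In 75 groups of arrays (25 probe sets in 3 RNAi groups), 5 held an array that stood apart from the others of its group by most of the group's range, and chance would flag about 1 in 20 groups. Among Pou5f1 RNAi arrays these were the highest reading of Fgf4 probe set 1450282_at (5.41) and the lowest of Spry4 probe set 1440867_at (6.70). Among Nanog RNAi arrays they were the highest readings of Fgfr1 probe set 1424050_s_at (7.99), Etv5 probe set 1450082_s_at (8.82) and Spry4 probe set 1422020_at (5.85). The Fgfr1 reading belongs to an array without which the call of Fgfr1 for Nanog RNAi against vector was lost. That call was also lost without any of several vector arrays.

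In the fit without a dye term, tested differences between inducers were called for 2 genes. Fgf5 differed by -1.62 for retinoic acid minus DMSO and by 1.74 for DMSO minus HMBA. Fgfbp1 differed by -1.12 for retinoic acid minus DMSO and by -1.11 for retinoic acid minus HMBA. With dye orientation as a term, retinoic acid minus HMBA was also called for Fgfr1 (-0.36), Fgfr2 (-0.43) and Dusp6 (0.67), and DMSO minus HMBA for Fgfr2 (-0.36) and Dusp6 (0.49).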

How the results depend on the processing

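No value turned its direction while called under any alternative run. On the RNAi arrays the counts of called probe sets stayed within 1.5 times under every alternative, the replicate block included, and leaving out 1 array gave 20 to 21 calls for Pou5f1 RNAi against vector, 12 to 14 for Nanog RNAi against vector and 19 to 21 between the knockdowns. The exact permutation test, unadjusted, gave p under 0.05 for 20, 14 and 20 of the 25 probe sets. It was run on these probe sets only, so no share over all probe sets stands beside its counts. Of single RNAi values 9 lost and 1 gained a call. The one gained was Fgf5 for Pou5f1 RNAi against vector (-0.21, adjusted p = 0.0304) with probe sets averaged per gene, and Fgfr1 for Nanog RNAi against vector was lost with only those groups in the fit (adjusted p = 0.0528).

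The ratio arrays depended more on the fit. With dye orientation as a term (replicate block) 8 and 9 of the 11 probes were called on retinoic acid days 4 and 6. That fit called 29.4% and 40.4% of all probes on those days. For the DMSO mean 11 were called, where 22.7% of all probes were higher and 18.4% lower. On DMSO days 2, 4 and 6 the counts were 7, 10 and 10 (10.3%, 25.6% and 31.1% of all). On HMBA days 2, 4 and 6 they were 8, 11 and 11 (21.3%, 33.3% and 32.9% of all). Day 6 minus day 2 gave 6 for retinoic acid, 5 for DMSO and 6 for HMBA (10.7%, 9.9% and 10% of all). Retinoic acid minus HMBA gave 4 (16.5% of all) and DMSO minus HMBA 3 (9.66% of all). On retinoic acid day 2 that term added calls for Fgf5, Fgfr2 and Spry2, where it called 22.6% of all probes. For the settings below, the share of all probes called is not given, so their counts describe the listed probes only. With arrays scaled to one spread, day 6 minus day 2 gave 0 calls for retinoic acid and 1 for HMBA. With only probes on all 18 arrays, where Fgf4 and Fgf5 drop out, DMSO day 2 gave 1, retinoic acid minus DMSO 1 and DMSO minus HMBA 0. With only the inducer's 6 arrays, retinoic acid days 2 and 6 gave 2 and 3, DMSO day 2 gave 0, and day 6 minus day 2 gave 0, 0 and 1 for retinoic acid, DMSO and HMBA. Leaving out 1 array gave 2 to 6 calls for retinoic acid day 2, 3 to 5 for day 6 and 1 to 3 for day 6 minus day 2. The ranges were 0 to 3 for DMSO day 2, 3 to 5 for day 6 and 0 to 3 for day 6 minus day 2, and 2 to 4, 4 to 7 and 3 to 7 for HMBA days 2, 4 and 6 and 1 to 2 for day 6 minus day 2. They were 1 to 2 for retinoic acid minus DMSO, 0 to 1 for retinoic acid minus HMBA and 0 to 1 for DMSO minus HMBA. Of single ratio values, 3891 kept their call and direction, 167 lost a call, 66 gained one and 76 moved without a call. Causes beyond the dye and the fewer arrays or probes were not tested.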
